A study of Solanum lycopersicum with 48 samples.

Results

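The genes described here are 2 loci of tomato, Solyc06g074990 and Solyc11g069750, taken by locus number as high affinity nitrate transporters of the NRT2 type, out of 29898 genes in the deposited table (28005 with a Solyc locus number and 1893 newly assembled). Which values chose them is not stated. They were treated as chosen by their measured FPKM in Guizhen roots at day 7, whose difference between low and normal nitrogen was already known for both, so that every comparison using those libraries is given as a description and carries no test. That the other comparisons played no part in the choice is an assumption. The libraries came from Guizhen No.1 and Guozhen No.1, a pair of tomato cultivars raised in hydroponic Hoagland solution. Nitrogen was supplied at 9 mM (the control, called normal nitrogen) or at 1 mM (low nitrogen), and root and leaf were sampled on day 1 and on day 7. This made 16 groups of 3 libraries, and the labels name no further genotype or agent. The labels give no plant age, do not say whether the 3 libraries came from separate plants, and do not say in which form nitrogen was supplied. Levels are in FPKM, fragment numbers divided by transcript length and by library size, so that genes can be compared, and differences are of mean log2(FPKM + 1).

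NRT2 proteins sit in the plasma membrane and carry nitrate into the cell together with protons, working at low external nitrate where low affinity carriers contribute little. Most of them need a small partner protein, NAR2 (also called NRT3), to reach the membrane and to work. In Arabidopsis roots, NRT2 transcripts are induced by nitrate and repressed by a good supply of reduced nitrogen, and they rise when a plant becomes short of nitrogen. The gene table supplied for tomato, from RefSeq, holds 2 NRT2 symbols, NRT2.2 on chromosome 6 and LeNRT2.3 on chromosome 11. These are the chromosomes in the locus numbers of both members, but none of its 41476 entries carries a Solyc number, so that neither symbol could be tied to a member.

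Within a group, library correlations lay between 0.972 and 0.986 for root and between 0.955 and 0.988 for leaf. Summed over 4 loci set down by number as photosynthesis genes, root libraries read 9.50 to 68.8 FPKM and leaf libraries 3700.1 to 79387 FPKM, so that the organ labels and these loci did not conflict. The number of reads was not given. Relative depth, read from the ratios of values below 0.15 FPKM, ran from 0.758 to 2.14 times the median library, and was 2.14 in replicate 2 of Guozhen root at day 7 under normal nitrogen.

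Both members were root transcripts. In root, Solyc06g074990 was above 0 in all 24 libraries, with a lowest value of 1.89, a median of 17.3 and a highest of 359 FPKM. In leaf it was listed at 0 in 7 of 24 libraries, and the median was 0.275 and the highest value 3.25 FPKM. Solyc11g069750 had a median of 2.08 and a highest value of 11.4 FPKM in root, where it was listed at 0 in 2 libraries, and it was listed at 0 in all 24 leaf libraries. An exact 0 in this table can be a failed estimate, since 53 of the 10532 genes averaging 10 FPKM or more in root were at 0 in some root library, as were 139 of 9733 such genes in leaf, a count that does not separate failed estimates from genes not expressed in some groups.

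**Figure D1:**
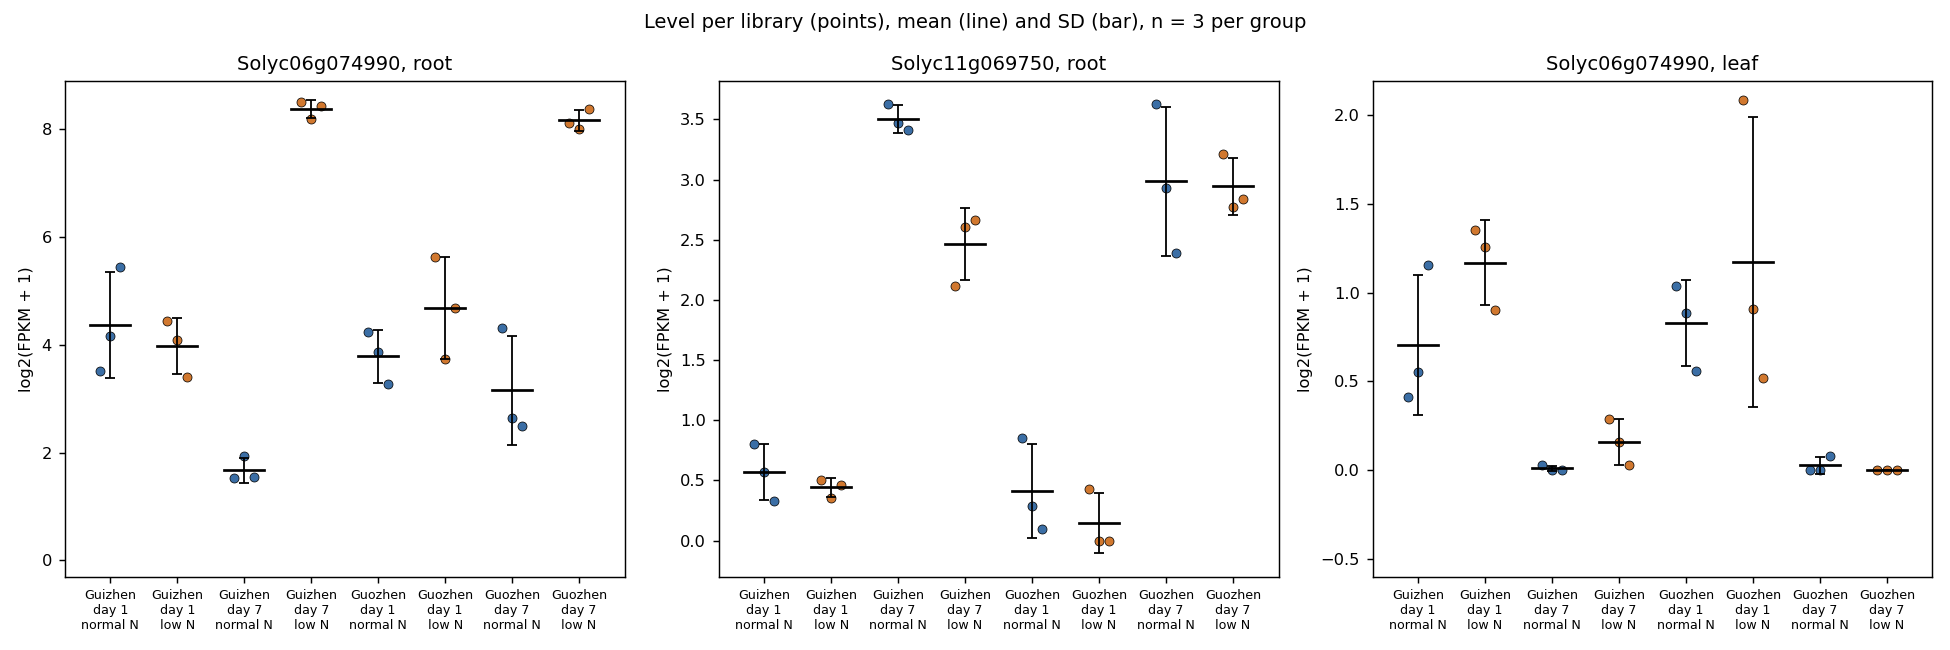
Level of Solyc06g074990 in root and leaf and of Solyc11g069750 in root, as log2(FPKM + 1), with 3 libraries as points, their mean as a line and SD as a bar in each group (blue, normal nitrogen, and orange, low nitrogen). Solyc06g074990 stood highest in the low nitrogen roots of day 7 in both cultivars, and Solyc11g069750 stood higher at day 7 than at day 1 in every group.

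In Guozhen roots at day 7, Solyc06g074990 was 29.8-fold higher under low nitrogen, and no change of Solyc11g069750 was detected. The test assumes that this comparison did not enter the choice of the members. Without normal nitrogen replicate 1, the highest of its group, the ratio of means was 58.0, and without replicate 2 or 3 it was 24.3 or 23.6. The 3 normal nitrogen libraries held 18.9, 5.26 and 4.60 FPKM of Solyc06g074990, and the 3 low nitrogen libraries 275, 253 and 330 FPKM. All low nitrogen libraries lay above all normal nitrogen libraries, as the libraries of either direction did in 40.2% of the 20435 root genes tested. Means were 9.59 ± 8.08 and 286 ± 39.9 FPKM (SD, n = 3 each), a log2 difference of 5.01 ± 0.50 (SE, limma adjusted p = 7.05e-06), where 27.6% of all genes were called, 12.8% higher and 14.8% lower. This was the rise of rank 3 among the 20435 genes.

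For Solyc11g069750 in the same roots, the normal nitrogen libraries held 11.4, 6.63 and 4.25 FPKM and the low nitrogen libraries 8.28, 5.85 and 6.15 FPKM. The low values fell inside the range of the normal ones. Means were 7.42 ± 3.62 and 6.76 ± 1.33 FPKM (SD, n = 3 each), and the log2 difference of -0.04 ± 0.25 (SE, limma adjusted p = 0.930) had a 95% interval from -0.57 to 0.49. Replicate 1 of the normal nitrogen group was the highest of its group for both members.

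In Guizhen roots at day 7, whose nitrogen difference was known when the members were chosen, the normal nitrogen libraries held 1.89, 2.82 and 1.91 FPKM of Solyc06g074990 and the low nitrogen libraries 359, 287 and 342 FPKM. The ratio of the group means was 149, and the groups did not overlap, as in 24.5% of root genes. Solyc11g069750 read 11.4, 10.1 and 9.63 FPKM at normal nitrogen and 3.34, 5.09 and 5.34 FPKM at low nitrogen. Its low nitrogen libraries all lay below the normal ones, and the ratio of the means was 0.442.

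Side by side, low nitrogen moved Solyc06g074990 by 6.69 ± 0.50 in Guizhen and 5.01 ± 0.50 in Guozhen on the log2 scale (SE), and Solyc11g069750 by -1.04 ± 0.25 and -0.04 ± 0.25. The Guozhen minus Guizhen difference of these responses was -1.68 ± 0.71 for Solyc06g074990 and 1.00 ± 0.36 for Solyc11g069750. Both are given without a test because the Guizhen part of each was treated as used to choose the members. Under low nitrogen the cultivars reached overlapping levels of Solyc06g074990, 287 to 359 FPKM in Guizhen and 253 to 330 FPKM in Guozhen. Under normal nitrogen every Guozhen library, at 4.60 to 18.9 FPKM, lay above every Guizhen library, at 1.89 to 2.82 FPKM, and the ratio of the means was 4.34, or 2.23 without Guozhen replicate 1. The libraries of the cultivars did not overlap in 18% of all genes there.

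At day 1 no nitrogen difference was detected in either member. Guizhen roots held 10.4, 16.9 and 42.3 FPKM of Solyc06g074990 at normal nitrogen (highest in replicate 3) and 9.61 to 20.6 FPKM at low nitrogen, with a log2 difference of -0.39 ± 0.50 (SE, limma adjusted p = 0.901). Guozhen roots held 8.59 to 17.8 FPKM at normal nitrogen and 12.4, 24.5 and 48.4 FPKM at low nitrogen, with a difference of 0.90 ± 0.50 (adjusted p = 1, unadjusted p = 0.0901). The groups overlapped in both cultivars, whereas 16% of all genes in Guizhen and 8.71% in Guozhen did not overlap. Few genes of any kind were called at that day, 0.00979% in Guizhen and 0.0391% in Guozhen roots. The 95% intervals of these log2 differences were -1.44 to 0.65 in Guizhen and -0.15 to 1.95 in Guozhen.

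Solyc11g069750 was below 1 FPKM in all 12 root libraries of day 1, from 0 to 0.806 FPKM. Its log2 nitrogen difference was -0.13 ± 0.25 in Guizhen (SE, limma adjusted p = 0.954) and -0.27 ± 0.25 in Guozhen (adjusted p = 1). Levels near 0 leave little room for a difference on this scale, and with a pseudocount of 0.1 the Guozhen difference was -1.15 and the Guizhen one -0.30, neither of them called.

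The nitrogen response of Solyc06g074990 in Guozhen roots was larger at day 7 than at day 1. The difference between the 2 responses was 4.11 ± 0.71 on the log2 scale (SE, limma adjusted p = 0.0018), where 13.3% of all genes were called. For Solyc11g069750 the same difference was 0.23 ± 0.36 (adjusted p = 0.723), or 1.12 with a pseudocount of 0.1 (adjusted p = 0.373). In Guizhen roots the values were 7.09 ± 0.71 and -0.92 ± 0.36, as a description.

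The 2 days also separated the members. Under low nitrogen, Solyc06g074990 rose in Guozhen roots from 28.4 ± 18.3 FPKM at day 1 to 286 ± 39.9 FPKM at day 7 (SD, n = 3 each), a log2 difference of 3.47 ± 0.50 (SE, limma adjusted p = 1.16e-05), where 54.5% of all genes were called. Under normal nitrogen it read 13.3 ± 4.59 and 9.59 ± 8.08 FPKM, and the difference of -0.64 ± 0.50 was not called (adjusted p = 0.312), where 48.6% of all genes were called. Without replicate 1 of day 7, the library at 18.9 FPKM, that difference was -1.22 and was called (adjusted p = 0.0481). In Guizhen roots under normal nitrogen, all 3 libraries of day 7 lay below the 3 of day 1, with means of 2.21 ± 0.530 and 23.2 ± 16.9 FPKM (SD, n = 3 each), and 56.3% of all genes did not overlap.

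Solyc11g069750 stood higher at day 7 than at day 1 at both nitrogen levels. All 12 of its root libraries with at least 1 FPKM were those of day 7, so that it passed the filter on low values through day 7 alone, and its day differences are given without a test. In Guozhen roots under normal nitrogen, day 1 held 0.806, 0.220 and 0.0697 FPKM and day 7 held 11.4, 6.63 and 4.25 FPKM, a ratio of means of 20.3 and a log2 difference of 2.57 ± 0.25 (SE). Under low nitrogen it went from 0.348, 0 and 0 FPKM to 8.28, 5.85 and 6.15 FPKM, a ratio of 58.3 and a log2 difference of 2.80 ± 0.25. With a pseudocount of 0.1 these log2 differences were 4.25 and 5.36. The days did not overlap in either case, as in 57.3% and 58.7% of all genes. In Guizhen roots the day 7 minus day 1 differences were 2.94 ± 0.25 at normal and 2.02 ± 0.25 at low nitrogen, as a description.

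**Figure D2:**
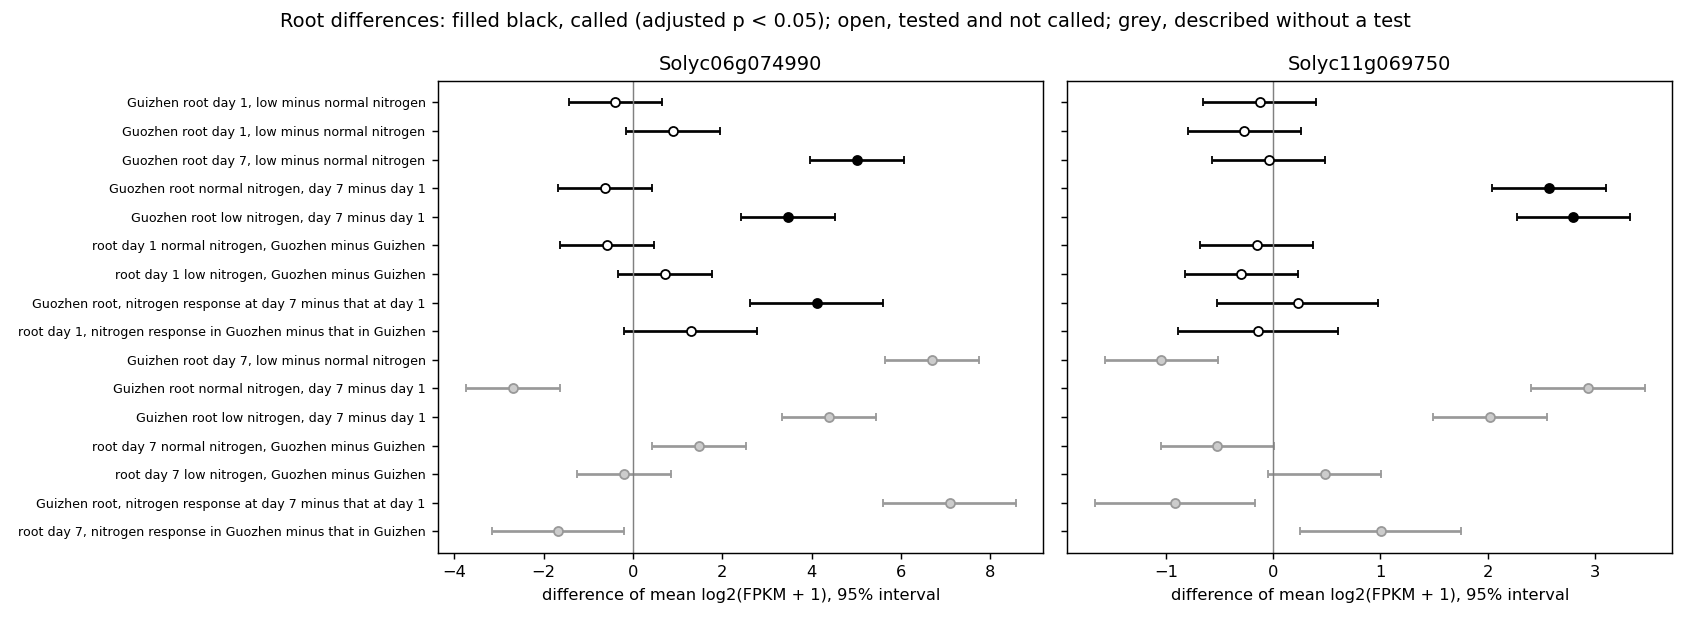
Differences of mean log2(FPKM + 1) in root with 95% intervals for Solyc06g074990 (left) and Solyc11g069750 (right), where black points were fitted with a p-value (filled when it passed) and grey points use Guizhen roots of day 7 and are described without a test. The called differences of Solyc06g074990 are those with low nitrogen at day 7, up to 5.01, and the filled points of Solyc11g069750 are the day differences, 2.57 and 2.80, of a gene that passed the filter on low values through day 7 alone and so are read as a description.

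The cultivars were not told apart at day 1. Solyc06g074990 was 0.58 ± 0.50 lower in Guozhen than in Guizhen roots at normal nitrogen (a log2 difference of -0.58, limma adjusted p = 0.778) and 0.71 ± 0.50 higher at low nitrogen (adjusted p = 0.926), where 1.56% and 0.763% of all genes were called. The difference of the day 1 nitrogen response between cultivars was 1.29 ± 0.71 (adjusted p = 0.736), where 0.0734% were called, with a 95% interval from -0.19 to 2.78. For Solyc11g069750 the cultivar differences were -0.16 ± 0.25 (adjusted p = 0.914) and -0.30 ± 0.25 (adjusted p = 0.975), and the difference of the responses was -0.14 ± 0.36 (adjusted p = 0.986). With a pseudocount of 0.1 these were -0.62, -1.47 and -0.85, none of them called.

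Ordered by mean level over the 16 groups, Solyc06g074990 stood first in Guizhen and then in Guozhen roots of day 7 under low nitrogen, and these neighbours overlapped. A gap followed, from at least 253 FPKM to at most 48.4 FPKM. The next 5 groups, the 4 of day 1 root and Guozhen root of day 7 under normal nitrogen, each overlapped the following one. Guizhen root of day 7 under normal nitrogen came next, apart from the group above it. It overlapped the highest leaf group, Guozhen leaf of day 1 under low nitrogen, and the other leaf groups followed. For Solyc11g069750, the roots of day 7 under normal nitrogen came first in Guizhen and second in Guozhen, then Guozhen and Guizhen roots of day 7 under low nitrogen. Of these 4, Guozhen and Guizhen under low nitrogen did not overlap (nor did 29.3% of all genes), and the others overlapped their neighbour.

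The share of each member in their joint level changed with these groups. Solyc06g074990 made up 93.3% to 100% of the summed FPKM of both members in each root library of day 1. At day 7 it made up 97.1% to 99.1% under low nitrogen, 14.3% to 21.8% in Guizhen under normal nitrogen and 44.2% to 62.5% in Guozhen under normal nitrogen. The sum of both was 12.6 ± 0.926 FPKM in Guizhen roots of day 7 under normal nitrogen and 334 ± 36.7 FPKM under low nitrogen (SD, n = 3 each), and 17.0 ± 11.6 and 293 ± 39.8 FPKM in Guozhen. In the low nitrogen roots of day 7, Solyc06g074990 was more abundant than 99.2% to 99.5% of the genes in the table in Guizhen and 99.0% to 99.3% in Guozhen. In the normal nitrogen roots of day 7, it was more abundant than 43.5% to 47.8% and 54.0% to 78.2%. As these are whole roots, more cells that express the gene and more RNA per cell cannot be told apart.

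**Figure D3:**
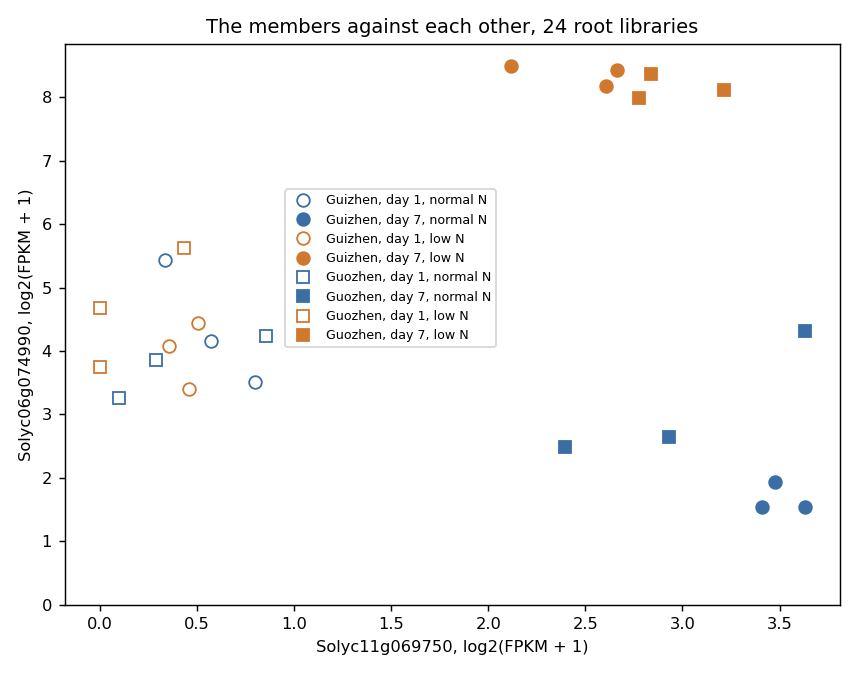
Solyc06g074990 against Solyc11g069750 as log2(FPKM + 1) in the 24 root libraries (circles, Guizhen, and squares, Guozhen, open at day 1 and filled at day 7, blue at normal and orange at low nitrogen). Day 1 libraries lie at the left, with Solyc11g069750 at 0.806 FPKM or less, and day 7 libraries split by nitrogen along Solyc06g074990, 253 FPKM or more against 18.9 FPKM or less.

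In leaf, where only Solyc06g074990 passed the filter, and through day 1 libraries alone, no nitrogen difference was called at day 1. At day 1 its leaf level averaged 0.674 ± 0.484 FPKM with normal and 1.27 ± 0.358 FPKM with low nitrogen in Guizhen, against 0.792 ± 0.292 and 1.52 ± 1.51 FPKM in Guozhen (SD, n = 3 each). The log2 differences were 0.46 ± 0.27 (SE, limma adjusted p = 0.492) and 0.34 ± 0.27 (adjusted p = 0.703), where 0.116% and 0.0606% of leaf genes were called. In Guozhen, low nitrogen replicate 1 held 3.25 FPKM and the others 0.879 and 0.435 FPKM. That replicate had the lowest sum of the photosynthesis loci among the leaf libraries, 3700.1 FPKM. Of the day 1 leaf libraries, it alone held Solyc11g069760 and Solyc00g090860, described below, above 0, at 0.663 and 0.454 FPKM. Why it stood apart was not tested. At day 7 the highest leaf value was 0.219 FPKM. Levels so near 0 left no room for a call on this scale, so the day 7 differences are given without a test. They were 0.15 ± 0.27 in Guizhen (SE, and 0.93 with a pseudocount of 0.1, not called) and -0.03 ± 0.27 in Guozhen. Whether the gene responds to nitrogen in leaves of day 7 cannot be read from them. The median change of all leaf genes at day 7 was 0.16 and 0.14, and median-of-ratios scaling shifted it by -0.13 in both. Across both nitrogen levels and cultivars, leaf values were 0.331 to 3.25 FPKM at day 1 and 0 to 0.219 FPKM at day 7.

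Solyc11g069750 lies in a run of locus numbers that may hold related copies, and reads could be split between them. The next locus number in the table, Solyc11g069760, and Solyc00g090860, a locus not placed on a chromosome by its number, had both been set down as nitrate transport loci by number, with no name in the sources used here. They were set down with earlier results of these data known. In the 12 root libraries of day 7, Solyc11g069760 held 31.0 to 351 FPKM (median 100.02), 3.81 to 42.4 times the level of Solyc11g069750. Solyc00g090860 held 12.1 to 150 FPKM there (median 48.3), 1.26 to 22.1 times that level. In Guozhen roots, both loci rose from day 1 to day 7, by 6.07 ± 0.79 and 5.52 ± 0.73 on the log2 scale at normal nitrogen (SE, limma adjusted p = 5.4e-06 and 6.69e-06). In that comparison 48.6% of all genes were called. With low nitrogen at day 7 both loci moved by -0.55 ± 0.79 (adjusted p = 0.653) and -1.36 ± 0.73 (adjusted p = 0.18) in Guozhen. In some groups, but not in all, their libraries spread more than those of Solyc11g069750. At day 7 under low nitrogen, Guozhen replicates held 351, 51.1 and 85.6 FPKM of Solyc11g069760 against 8.28, 5.85 and 6.15 FPKM of Solyc11g069750. Under normal nitrogen they held 192, 222 and 114 FPKM against 11.4, 6.63 and 4.25 FPKM. There Solyc11g069760 spread less relative to its level. Solyc11g069740, the preceding number, was listed at 0 in 23 of 24 root libraries and held 218 FPKM in Guizhen low nitrogen replicate 2 of day 7. How the authors' counting treated reads shared by such loci was not given in the sources used here, so that the level of Solyc11g069750 is uncertain to that extent.

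**Figure D4:**
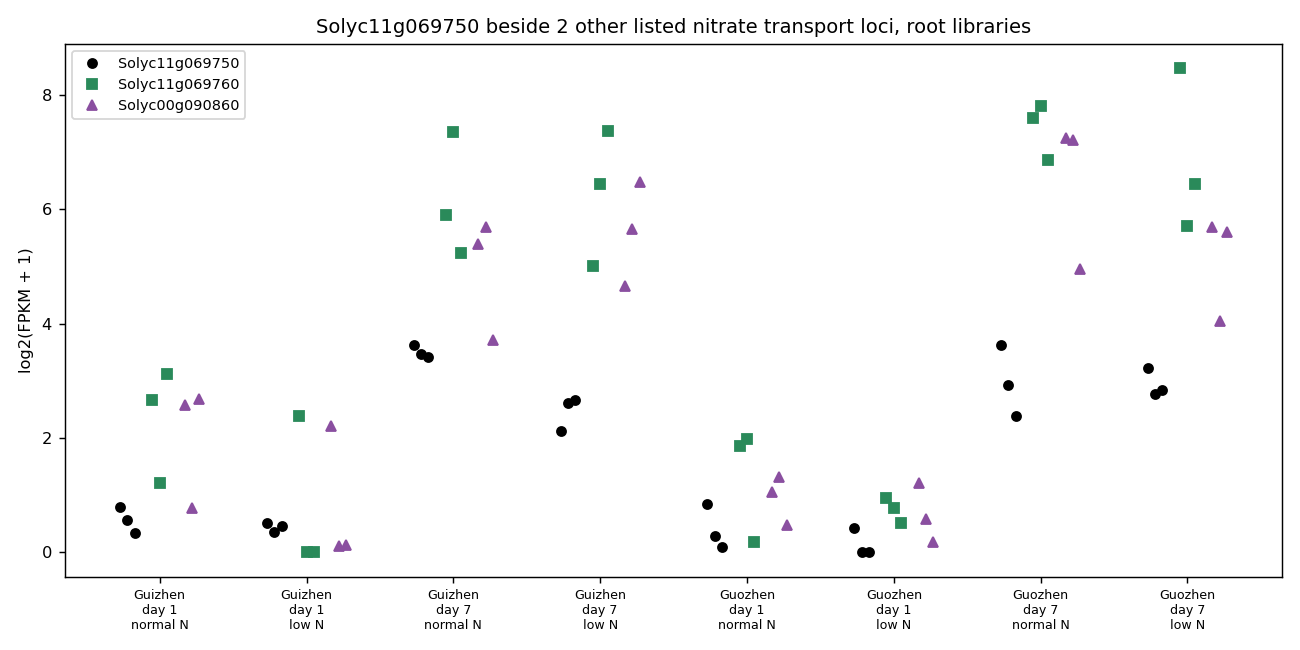
Solyc11g069750 (circles), Solyc11g069760 (squares) and Solyc00g090860 (triangles) as log2(FPKM + 1) in each root library, 3 per group. All 3 loci stand higher at day 7 than at day 1, and at day 7 both other loci lie above Solyc11g069750 in every library of their group.

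The wider pathway was read from a list of locus numbers chosen with earlier results of these data known, 6 for nitrate transport (5 in the table) and 12 for nitrate reduction, ammonium uptake and assimilation. In Guozhen roots at day 7 under low nitrogen, 2 of the 5 nitrate transport loci rose, none fell and 3 were not called, with a list median of 0.16 on the log2 scale against -0.03 over all genes and 27.6% of all genes called. The risers were Solyc03g112100, from 558 ± 54.6 to 1278 ± 101 FPKM (SD, n = 3 each, log2 difference 1.20 ± 0.26 SE, limma adjusted p = 0.00242), and Solyc08g078950, from 101 ± 22.9 to 247 ± 58.6 FPKM (1.28 ± 0.37, adjusted p = 0.0145). Of the 11 reduction and assimilation loci that passed the filter, 3 rose, 4 fell and 4 were not called, with a median of -0.38. Solyc10g076480, in that list, rose from 27.5 ± 2.78 to 59.7 ± 14.2 FPKM (1.07 ± 0.26, adjusted p = 0.00596), and Solyc10g050890 fell from 317 ± 27.3 to 40.5 ± 16.5 FPKM (-3.01 ± 0.41, adjusted p = 6.8e-05). In the same list, mean levels went from 66.6 to 306 FPKM for Solyc09g090730 and from 652 to 1562 FPKM for Solyc11g011380. They went down from 512 to 201 FPKM for Solyc04g014510 and from 423 to 224 FPKM for Solyc11g013810. For Solyc03g083440 they went down from 140 to 41.7 FPKM. The difference of Solyc06g074990, 5.01, exceeded that of each of these 16 loci, which lay between -3.01 and 2.15.

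In Guizhen roots at day 7 the same risers are given as values. Solyc08g078950 went from 27.3 ± 3.76 to 261 ± 87.8 FPKM, and Solyc03g112100 from 395 ± 4.55 to 1185 ± 106 FPKM (SD, n = 3 each). At day 1, limma called none of the 16 loci in either cultivar's roots, where 0.00979% of all genes in Guizhen and 0.0391% in Guozhen were called. An unadjusted p below 0.05 was seen in 2 assimilation loci in Guizhen and in 0 in Guozhen. The share of all genes below that unadjusted p was not computed. Such counts, here and in leaf, are therefore not read as a response of the lists. In leaf, 2 of the 5 nitrate transport loci passed the filter and limma called neither under low nitrogen in any of the 4 comparisons, with an unadjusted p below 0.05 for 1 of them in Guizhen at day 7 and 0 in the other comparisons. All 12 reduction and assimilation loci passed in leaf, and limma called none of them at day 1. The share of leaf genes called there was 0.116% in Guizhen and 0.0606% in Guozhen. An unadjusted p below 0.05 was seen in 4 of these loci in Guizhen and in 2 in Guozhen. At day 7, where 16.6% and 17.7% of leaf genes were called, 2 were higher and 2 lower in Guizhen, and 1 was higher and 2 lower in Guozhen.

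**Figure D5:**
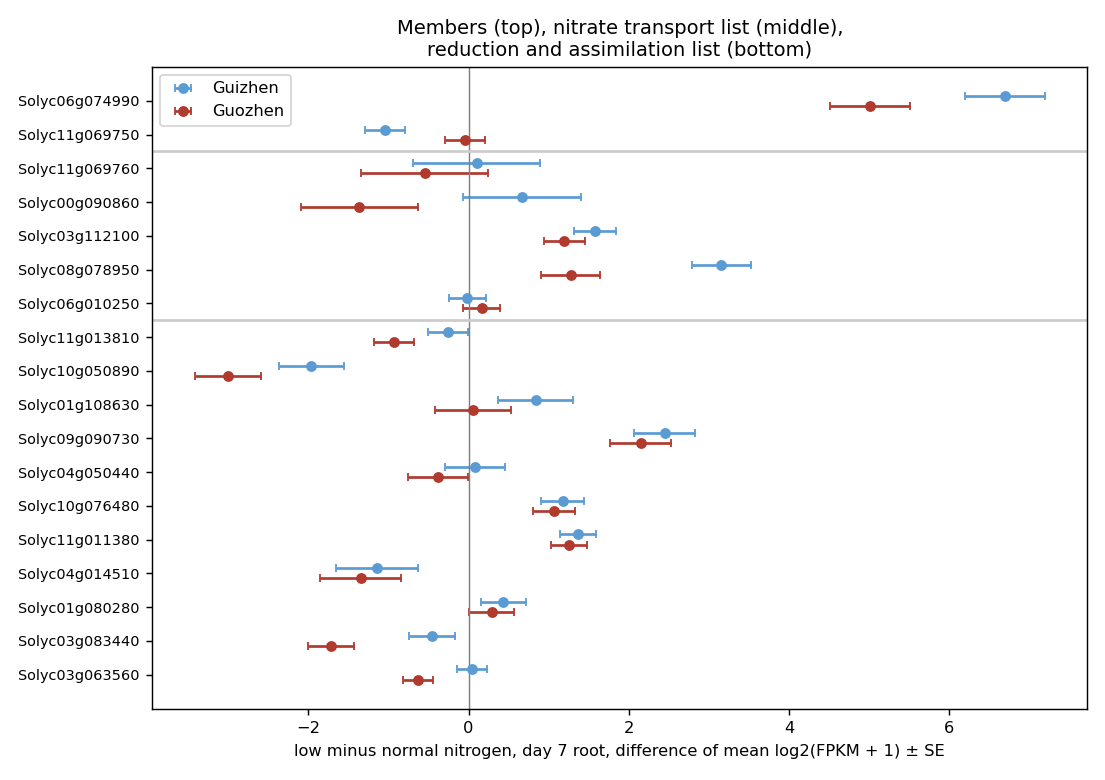
Low minus normal nitrogen in root at day 7 as the difference of mean log2(FPKM + 1) with its SE, in Guizhen (blue) and Guozhen (red), for both members (top), the 5 nitrate transport loci (middle) and the 11 reduction and assimilation loci (bottom). Solyc06g074990, at 6.69 and 5.01, lies to the right of all listed loci.

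Over the 24 root libraries, the gene whose log2(FPKM + 1) followed Solyc06g074990 most closely was Solyc08g065500, with a Pearson correlation of 0.95, among 15590 genes with a group mean of at least 5 FPKM. It stood at 34.7 and 40.2 FPKM in the low nitrogen roots of day 7 in Guizhen and Guozhen and at 2.14 and 2.47 FPKM in the normal ones. Solyc01g104910 (0.94), Solyc01g112190 (0.93), Solyc10g085950 (0.92) and Solyc08g065670 (0.91) followed, and 6 genes in all exceeded 0.9. Libraries share their group, so that the day 7 contrast enters these values, to an extent that was not tested. Within the 12 libraries of day 1, where nitrogen made no called difference, the correlation was 0.89 for Solyc08g065670 and 0.47 to 0.75 for the other 4. The most opposite genes were Solyc02g092800 (-0.86), Solyc06g050760 (-0.85) and Solyc09g082060 (-0.85). Within day 1 their correlations were -0.50, -0.06 and 0.11, in the same order, and within day 7 they were -0.91, -0.88 and -0.94.

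Solyc11g069750 was followed most closely by Solyc10g044700, Solyc04g014520 and Solyc02g093660 (0.97, 0.97 and 0.96) and by Solyc02g069190 and Solyc08g079470 (both 0.96), and 439 genes exceeded 0.9. The most opposite were Solyc08g074970 (-0.98), Solyc05g055200 (-0.97) and Solyc08g077110 (-0.97). The 24 libraries fall into the 2 days for this gene, and within a day the 5 closest genes had correlations of 0.28 to 0.69 at day 1 and 0.38 to 0.63 at day 7 (12 libraries each). The most opposite genes had -0.76 to -0.41 at day 1 and -0.84 to -0.54 at day 7. Between the members, the correlation was -0.01 within day 1 and -0.57 within day 7, where the libraries also differ by nitrogen level.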

How the data were processed

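Per the labels' protocols, RNA isolation used a Tiangen kit, and NEBNext Ultra reagents served for library construction. The authors deposited 1 table of FPKM for 48 libraries, and the submitters' processing notes name HISAT2 and StringTie, without versions. Neither build nor annotation is given in the sources used here. Read numbers are unknown, so that no counting interval is given. Groups were taken from sample titles. Members and gene lists were chosen with earlier results of these data known. For each organ, limma 3.58.1 (R 4.3.3) was run on log2(FPKM + 1) of its 24 libraries, with 1 mean per group and a variance trend, for genes reaching 1 FPKM in 3 or more libraries (20435 in root, 19815 in leaf). Benjamini-Hochberg adjustment covered all genes tested in the organ, and genes below 0.05 were called. An exact permutation test of 3 against 3 libraries has a smallest p of 0.1 and was not used. The p-values rest on the spread between libraries, pooled over the groups of an organ. Since replicates may not be separate plants, they may not cover variation between plants. Named genes were both members, the listed loci and, per member, the 5 most and 3 least correlated genes in root. The fit was checked on simulated root data, with changes placed only in genes of higher mean level than Solyc11g069750. That check does not cover levels as low as those of Solyc11g069750 or of the members in leaf. No sequences are shown. Figures were drawn with matplotlib 3.10.9.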

Additional observations from a re-analysis of the deposited data

Results flagged for a closer look

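The nitrogen response of Solyc06g074990 in Guozhen roots differed between the days by a test of the difference itself. It was larger at day 7 than at day 1 by 4.11 ± 0.71 on the log2 scale (SE, limma adjusted p = 0.0018), where 13.3% of all genes were called. The 3 low nitrogen libraries lay above the 3 normal ones at day 7 and overlapped them at day 1. Over all root genes, the 2 groups did not overlap in 40.2% at day 7 and in 8.71% at day 1.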

How the results depend on the processing

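Every call of the members (or its absence) was repeated with a pseudocount of 0.1, no filter, median-of-ratios scaling, equal column sums, only the groups compared, a replicate block, and without each library in turn. Of 288 repeats, 279 kept their side of the threshold with no change of sign (1 of them came to a difference of 0), 8 changed sign in differences that were not called, and 1 became called, all 9 on leaving out a library. Most repeats were of differences that were not called and stayed so. The repeats also include 12 for each Guozhen day difference of Solyc11g069750, which is given above as a description. The same holds for the 12 of each day 7 leaf nitrogen difference of Solyc06g074990. The Guozhen day 7 minus day 1 difference of Solyc06g074990 at normal nitrogen ranged from -1.22 to -0.30, and its nitrogen differences from -0.83 to 0.14 in Guizhen roots of day 1 and from -0.11 to 0.67 in Guozhen leaves of day 1. For Solyc11g069750, leaving out libraries gave -0.34 to 0.28 for nitrogen in Guozhen roots of day 7, -0.38 to 0.0022 for the cultivars at day 1 under normal nitrogen, -0.069 to 0.55 for the Guozhen response between days and -0.30 to 0.078 for the day 1 response between cultivars. The cause of these sign changes was not tested. The rise of Solyc06g074990 in Guozhen roots of day 7 stayed between 4.67 and 5.59 (adjusted p 4.73e-06 to 0.00352). The other uncalled day 1 differences of Solyc06g074990 in root kept their sign but moved. They came to between 0.42 and 1.37 for nitrogen in Guozhen. For the cultivars they came to between -1.01 and -0.047 at normal and between 0.24 and 1.18 at low nitrogen. A pseudocount of 0.1 moved most differences of Solyc11g069750 by over 1.5 times, as given beside them. The ratios of means without single libraries were chosen after seeing the data. The 5 genes closest to Solyc06g074990 were also the closest by Spearman rank correlation, but only 1 of 5 was for Solyc11g069750.

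With the replicate number as a block, the Guozhen day 7 nitrogen difference of Solyc06g074990 was 5.01 (limma adjusted p = 1.82e-05), and no call of the members changed. Same-numbered libraries deviated together in only 5 of 24 pairs (correlation over 0.1, range -0.20 to 0.16), and 6 of 24 correlated best with their own number, so that the numbers are not taken to pair libraries. The block moved the genes called in Guizhen from 2 to 5 in roots and from 23 to 14 in leaves of day 1.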

Other observations

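Levels of further locus numbers beside the members are given as values. Solyc06g074980, just before Solyc06g074990, read 230 ± 23.9 FPKM under normal and 145 ± 17.1 FPKM under low nitrogen in Guozhen roots of day 7 (SD, n = 3 each), where Solyc06g074990 read 9.59 ± 8.08 and 286 ± 39.9 FPKM. Solyc06g075000, just after it, stayed between 1.25 and 2.81 FPKM in the 8 root group means. Solyc11g069730, close before Solyc11g069750, had group means of 2.82 to 8.15 FPKM in leaf and 0 to 0.142 FPKM in root.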
